A study of Mus musculus with 6 samples.

Results

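The Janus kinases (JAKs), the STAT transcription factors and the SOCS inhibitors carry the signals of cytokine receptors from the cell surface to the nucleus. The 10 genes described here, *Jak1*, *Jak2*, *Jak3*, *Stat3*, *Stat5a*, *Stat5b*, *Stat6*, *Socs2*, *Socs3* and *Cish*, were chosen by name as members of this pathway, and their transcripts were found by pairing each transcript name with a gene symbol. They are 10 of 18890 genes with reads once the estimated counts were rounded, and all 10 passed the filter on low counts, as did 12461 genes in all. RNA was sequenced from bone marrow-derived mast cells (BMMCs) of naive wild type BALB/c mice (libraries S9, S10 and S11) and C57BL/6 mice (libraries S12, S13 and S14), 3 libraries per strain. The cultures of both strains were on day 20 in a medium supplemented with stem cell factor, TGF-β1, IL-9 and IL-3, and the labels name no stimulation. The study calls the libraries of a strain biological replicates. The labels do not say whether they came from separate mice, and the methods give sex and age for the mice treated through the airways but not for the marrow donors, so the p-values below measure the spread between these cultures. Between 28273365 and 37100869 reads per library were assigned to genes.

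A cytokine that binds its receptor brings the JAKs on the receptor chains together, the JAKs phosphorylate the receptor and the STAT proteins bound to it, and the STAT dimers move to the nucleus and switch on target genes. Among these targets are *Cish* and the *Socs* genes, whose products bind the receptor or the JAK and damp the same signal, a negative feedback. In mast cells IL-3 signals through the common beta chain, JAK2 and STAT5, which keep the cells alive, IL-9 signals through the common gamma chain with JAK1 and JAK3, and IL-4 through STAT6. The mast cell label was checked first. All 11 mast cell markers, among them *Kit*, *Fcer1a* and *Cpa3*, were expressed in all libraries, with a summed level of 39210 to 43300 TPM in BALB/c and 38280 to 41610 TPM in C57BL/6 BMMCs. Within that sum the protease *Tpsb2* was called higher in C57BL/6 (1615 against 7095 TPM, log2 fold change 2.32, adjusted p = 5.16e-07, edgeR) the protease *Cma1* was lower (15390 against 10090 TPM, −0.43, adjusted p = 0.00107, edgeR), and *Cpa3* did not pass the test (−0.02, adjusted p = 0.699, edgeR). *Hdc*, which makes histamine, was called higher (1.19, adjusted p = 0.000735, edgeR) and the transcription factor *Mitf* was lower (−0.23, adjusted p = 0.00124, edgeR). The receptor genes *Kit* (0.14, adjusted p = 0.038), *Fcer1a* (0.13, adjusted p = 0.0127) and *Ms4a2* (0.25, adjusted p = 0.000256, edgeR) were higher by less than 2-fold. TPM is the estimated read count per transcript length, with a common total for all libraries.

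Most STAT dimers bind the palindrome TTCNNNGAA, which reads the same on both strands, and it was searched in the promoter sequences of RefSeq (assembly GRCm38.p6), each from 250 bases before to 50 bases after an annotated gene start. Of the 10 genes, 9 had a promoter in that table, with 11 sequences, and *Socs2* had none. The motif was found for 2 of them. *Cish* held it at the annotated start itself, with first bases at +1 and +12, and *Socs3* held it once, with its first base at −154. For comparison, 8.3% of 32851 promoters of the same length held the motif at least once and 0.457% at least 2 times. The stretches around the matches are shown because they are where these genes carry the letters that STAT dimers recognise, and capitals mark the motif. The *Cish* stretch is chr9:107296654-107296683 on the plus strand and the *Socs3* stretch is chr11:117969467-117969566 on the minus strand.
Cish: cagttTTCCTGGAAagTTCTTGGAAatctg
Socs3: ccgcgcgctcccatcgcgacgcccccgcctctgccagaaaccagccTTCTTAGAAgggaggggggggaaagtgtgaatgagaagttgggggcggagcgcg
A match to these letters is a description of the sequence, and binding was not measured.

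The level of each gene was compared with the others in TPM, since it accounts for transcript length. *Cish* was the most abundant of the 10 in both strains, at 117 ± 9.28 TPM (SD, n = 3) in BALB/c and 172 ± 6.17 TPM in C57BL/6 BMMCs. In BALB/c cells it was followed by *Jak1* (94.7 TPM), *Stat3* (80.9 TPM), *Jak3* (61.6 TPM), *Socs3* (57.7 TPM), *Stat6* (44.9 TPM), *Socs2* (40.5 TPM), *Jak2* (37.0 TPM), *Stat5a* (32.0 TPM) and *Stat5b* (31.4 TPM). Neighbours in that order whose 3 libraries overlapped were *Jak3* and *Socs3*, *Socs2* and *Jak2*, and *Stat5a* and *Stat5b*. In C57BL/6 cells *Jak1* (88.9 TPM) and *Socs3* (82.3 TPM) came next, with overlapping libraries, then *Stat3* (57.5 TPM), *Jak2* (50.5 TPM), *Stat6* (42.5 TPM), *Jak3* (37.1 TPM), *Socs2* (33.8 TPM), *Stat5a* (29.9 TPM) and *Stat5b* (22.9 TPM), none of which overlapped its neighbour. *Jak2* and *Jak3* thus stood in opposite order in the 2 strains, with *Jak3* above *Jak2* in BALB/c and below it in C57BL/6 BMMCs. By mean TPM over all libraries the 10 genes lay between percentile 71.6 (*Stat5b*) and percentile 94.3 (*Cish*) of the genes tested.

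Between the strains, 3 of the 10 genes were higher in C57BL/6 (*Cish*, *Socs3* and *Jak2*) and 3 were lower (*Jak3*, *Stat3* and *Stat5b*) at an adjusted p under 0.05 (edgeR quasi-likelihood test, p-values adjusted by Benjamini-Hochberg over all genes tested). Over all genes, 27.0% were higher and 25.9% lower at this threshold, 52.9% in either direction, so that 6 of 10 is close to the share of all genes. None of the 10 passed both thresholds of the study, an adjusted p under 0.05 and a fold change above 2, which 13.3% of all genes did. That count of 0 was also what DESeq2 and limma gave. An unadjusted p under 0.05 in edgeR was found for 7 of the 10 and for 7249 of the 12461 genes tested. The median log2 fold change of the 10 genes was 0.09, against −0.01 over all genes tested, and the median absolute value was 0.29, against 0.24. In 8 of the 10 the 3 libraries of one strain all lay above those of the other in CPM (reads of a gene relative to the TMM-scaled library total), which 61.9% of all genes did.

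**Figure D1:**
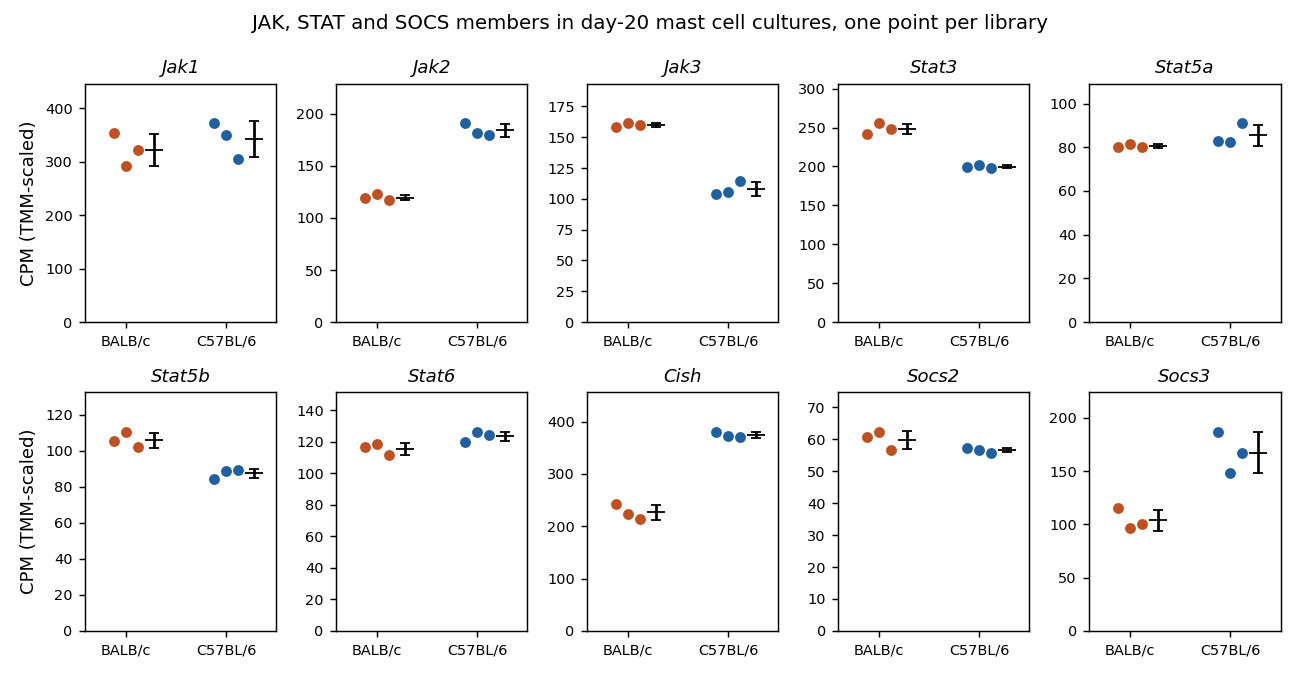
CPM (TMM-scaled, each axis starting at 0) of the 10 genes in 3 BALB/c (orange) and 3 C57BL/6 (blue) libraries, 1 point per library, with the mean and SD of each strain in black. The strains stand apart most clearly for *Jak2*, *Jak3*, *Stat3*, *Cish* and *Socs3*, while the points of *Jak1* and *Socs2* overlap.

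Among the kinases, *Jak2*, which serves the receptors of IL-3, erythropoietin and thrombopoietin, was 1.54-fold higher in C57BL/6 BMMCs and *Jak3*, which binds only the common gamma chain, was 1.48-fold lower. The gene for *Jak2* lies at chr19:29228677-29290505 on the plus strand (GRCm39, as are the other gene positions given here). It was measured at 119, 123 and 117 CPM in BALB/c and at 191, 181 and 180 CPM in C57BL/6 BMMCs. All C57BL/6 libraries lay above all BALB/c libraries. The log2 fold change was 0.62 ± 0.04 (SE, adjusted p = 2.24e-06, edgeR), with a 95% interval of 0.53 to 0.71. With curated mRNA transcripts alone it was 0.48, with an adjusted p of 0.0393.

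*Jak3*, at chr8:72123007-72143225 on the plus strand, went the other way. Its libraries held 158, 161 and 160 CPM for BALB/c, and 104, 105 and 115 CPM for C57BL/6 BMMCs, with no overlap. On the log2 scale the fold change was −0.56 ± 0.05 (adjusted p = 8.96e-06, edgeR; 95% interval −0.67 to −0.46). Of its 31-base words, 6.93% also occur in transcripts of the neighbouring gene *Insl3*, so that some reads could fit either gene.

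*Jak1*, the kinase shared by the receptors of the gamma chain, interferon and gp130 families, lies at chr4:101008838-101122487 on the minus strand. It was the most abundant kinase, with 353, 293 and 321 CPM in BALB/c and 372, 350 and 305 CPM in C57BL/6 BMMCs. The strains overlapped, and replicates of a strain differed more from each other than the strain means did. This gave a log2 fold change of 0.09 ± 0.08 (adjusted p = 0.414, edgeR), its 95% interval reached from −0.10 to 0.28, and its value was −0.06 with plain library size and −0.09 on log2(TPM + 1). These scalings move the median of all genes by −0.14 and −0.17, and relative to that median *Jak1* stayed at 0.09 and 0.08.

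**Figure D2:**
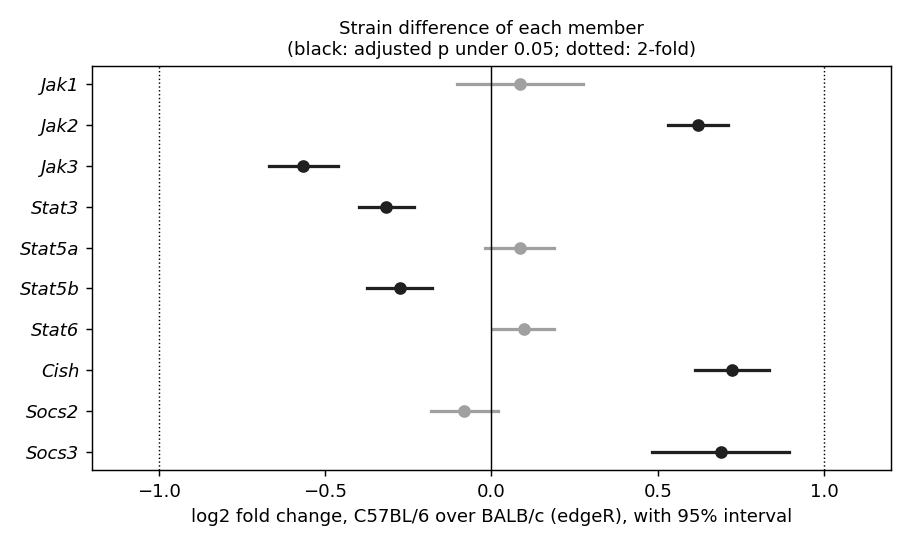
Log2 fold change (C57BL/6 over BALB/c, edgeR) of each of the 10 genes with its 95% interval, black where the adjusted p is under 0.05 and grey where it is not, with dotted lines at a 2-fold difference. *Cish*, *Socs3* and *Jak2* lie between 0.62 and 0.72, *Jak3* lies at −0.56, and no point reaches a dotted line.

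Among the transcription factors, *Stat3* and *Stat5b* were lower in C57BL/6 BMMCs, by 1.24-fold and 1.21-fold, and *Stat5a* and *Stat6* did not pass the test. *Stat3*, which gp130 and IL-10 family cytokines activate, was measured at 242, 255 and 248 CPM in BALB/c and at 199, 202 and 199 CPM in C57BL/6 BMMCs. Again the strains did not overlap, with BALB/c on the upper side. Its log2 fold change was −0.32 ± 0.04 (adjusted p = 8.78e-05, edgeR; 95% interval −0.40 to −0.23).

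*Stat5a* and *Stat5b* encode near-identical proteins that act downstream of IL-3 and other growth cytokines, and together with *Stat3* they sit in one stretch of chromosome 11. *Stat5b* is at chr11:100671556-100741589 on the minus strand, *Stat5a* at chr11:100750177-100776065 on the plus strand and *Stat3* at chr11:100775924-100830450 on the minus strand. The last 142 bases of *Stat5a* overlap the end of *Stat3* on the opposite strand. *Stat5b* held 105, 110.4 and 102 CPM for BALB/c, and 84.6, 88.6 and 89.5 CPM in C57BL/6 BMMCs, without overlap, and a log2 fold change of −0.27 ± 0.04 (adjusted p = 0.00062, edgeR). *Stat5a* held 80.0, 81.5 and 80.2 CPM in BALB/c and 82.9, 82.4 and 90.9 CPM in C57BL/6 BMMCs. The C57BL/6 values of *Stat5a* were all slightly above the BALB/c values, and the log2 fold change of 0.09 ± 0.05 did not pass the test (adjusted p = 0.149, edgeR). It was −0.06 with plain library size and −0.09 on log2(TPM + 1), and 0.09 and 0.08 relative to the median of all genes there. The genes share 9.79% of the 31-base words of *Stat5a* and 10.93% of those of *Stat5b*, so a read can fit both. When their counts were summed the log2 fold change was −0.11 (adjusted p = 0.0568, edgeR), and the difference called for *Stat5b* alone was not called for the sum.

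*Stat6*, the factor that IL-4 and IL-13 activate, lies at chr10:127477821-127496862 on the plus strand. It was measured at 116, 118 and 111 CPM in BALB/c and at 120.0, 126 and 124 CPM in C57BL/6 BMMCs. The libraries did not overlap, by a margin of under 2 CPM. The log2 fold change was 0.10 ± 0.04, its adjusted p of 0.0706 in edgeR missed the threshold, and its 95% interval was 0.01 to 0.19. It was −0.05 with plain library size and −0.08 on log2(TPM + 1), and 0.10 and 0.09 relative to the median of all genes there.

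Of the inhibitors, *Cish* and *Socs3* were higher in C57BL/6 BMMCs and *Socs2* did not pass the test. *Cish*, a feedback inhibitor that STAT5 induces, lies at chr9:107173225-107179983 on the plus strand and was 1.65-fold higher in C57BL/6 BMMCs. It was measured at 242, 224 and 213 CPM in BALB/c and at 380.0, 372 and 370.2 CPM in C57BL/6 BMMCs. The lowest C57BL/6 library was well above the highest BALB/c library. The log2 fold change was 0.72 ± 0.05 (adjusted p = 2.95e-06, edgeR; 95% interval 0.61 to 0.84).

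*Socs3*, which blocks gp130 receptors and is a target of STAT3, lies at chr11:117856905-117860898 on the minus strand and was 1.61-fold higher in C57BL/6 BMMCs. Its libraries held 115, 96.2 and 99.9 CPM in BALB/c and 187, 148 and 167 CPM in C57BL/6 BMMCs. The strains did not overlap, although the C57BL/6 libraries were spread more widely than those of *Cish*. Its log2 fold change was 0.69 ± 0.09 (adjusted p = 0.000204, edgeR; 95% interval 0.48 to 0.89).

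*Socs2*, another STAT5 target, which restrains growth hormone signalling, lies at chr10:95219523-95253929 on the minus strand. It held 60.7, 62.3 and 56.7 CPM in BALB/c and 57.3, 56.6 and 55.9 CPM in C57BL/6 BMMCs. The strains overlapped, and the log2 fold change of −0.08 ± 0.04 was not called (adjusted p = 0.155, edgeR; 95% interval −0.18 to 0.02). Without library S11 it was −0.12 and passed the test with an adjusted p of 0.0389, and so it did with plain library size, at −0.23, and on log2(TPM + 1), at −0.26. In these scalings the median of all genes moved by −0.14 with plain library size and by −0.17 on log2(TPM + 1), and relative to that median *Socs2* stood at −0.08 and −0.09.

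Ratios within a library do not depend on how the libraries are scaled, and 5 pairs of the 10 genes were compared in TPM. The exact permutation test of 3 against 3 libraries is two-sided and cannot give a p below 0.1. The *Socs2* to *Cish* ratio was 0.329, 0.364 and 0.349 in BALB/c and 0.197 in each of the 3 C57BL/6 libraries. These 2 feedback inhibitors thus stood further apart in C57BL/6 BMMCs, by −0.82 on the log2 scale, with no overlap (exact permutation p = 0.1, adjusted over 5 pairs 0.125). The *Socs3* to *Cish* ratio overlapped between the strains, at 0.493 ± 0.028 in BALB/c and 0.478 ± 0.049 in C57BL/6 BMMCs (exact permutation p = 0.7, adjusted 0.7).

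The ratio of *Stat5b* to *Stat5a* was 0.984, 1.01 and 0.950 across the BALB/c libraries and 0.763, 0.802 and 0.738 across the C57BL/6 libraries. The genes were thus at near-equal levels in BALB/c cells, while *Stat5b* was below *Stat5a* in C57BL/6 cells, with no overlap of the ratios (exact permutation p = 0.1, adjusted 0.125). The ratio of *Jak1* to *Jak2* was 2.84, 2.26 and 2.58 across the BALB/c libraries and 1.84, 1.84 and 1.60 across the C57BL/6 libraries, also without overlap and with the same p, and its log2 difference of −0.54 was −0.33 with curated mRNA transcripts alone. The ratio of *Jak3* to *Jak1* was 0.655 ± 0.064 in BALB/c and 0.422 ± 0.067 in C57BL/6 BMMCs without overlap, with the same p. These pairs were chosen with earlier results known.

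Other genes of the families were set beside the 10, and each was given as a share of the summed TPM of the JAK, STAT or SOCS genes reported here, which adds *Tyk2*, *Stat2*, *Stat4*, *Socs1* and *Socs4* to *Socs7*. *Jak2* made up 16.0% to 18.1% of the JAK family in BALB/c and 24.6% to 25.6% in C57BL/6 libraries, while *Jak3* made up 27.0% to 29.5% and 17.0% to 20.4%. *Jak1* held 40.9% to 45.5% in BALB/c and 41.1% to 46.0% in C57BL/6 libraries, so the kinases kept a like share of *Jak1* while *Jak2* and *Jak3* changed places. The summed JAK level overlapped between the strains, at 211 to 230 TPM in BALB/c and 193 to 214 TPM in C57BL/6 libraries.

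Among the 6 STAT genes reported here *Stat3* was the most abundant in all libraries, with 36.1% to 37.0% in BALB/c and 31.3% to 32.1% in C57BL/6 libraries. *Stat6* held 19.9% to 20.7% and 23.20% to 24.03%, *Stat5a* 14.18% to 14.59% and 15.96% to 17.4%, and *Stat5b* 13.86% to 14.33% and 12.45% to 12.83%. None of these ranges overlapped. Their summed level was 215 to 229 TPM in BALB/c and 176 to 184 TPM in C57BL/6 libraries, on a scale where the median of all genes moved by −0.17. In the SOCS family the leading gene differed. *Socs1*, the inhibitor of interferon and gamma chain receptors, held 41.9% to 46.9% in BALB/c against 25.9% to 28.7% for *Cish*, while *Cish* held 36.6% to 38.8% in C57BL/6 against 30.7% to 33.2% for *Socs1*. *Socs3* held 12.1% to 14.7% and 16.6% to 19.5%, and *Socs2* 9.05% to 9.58% and 7.21% to 7.63%.

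**Figure D3:**
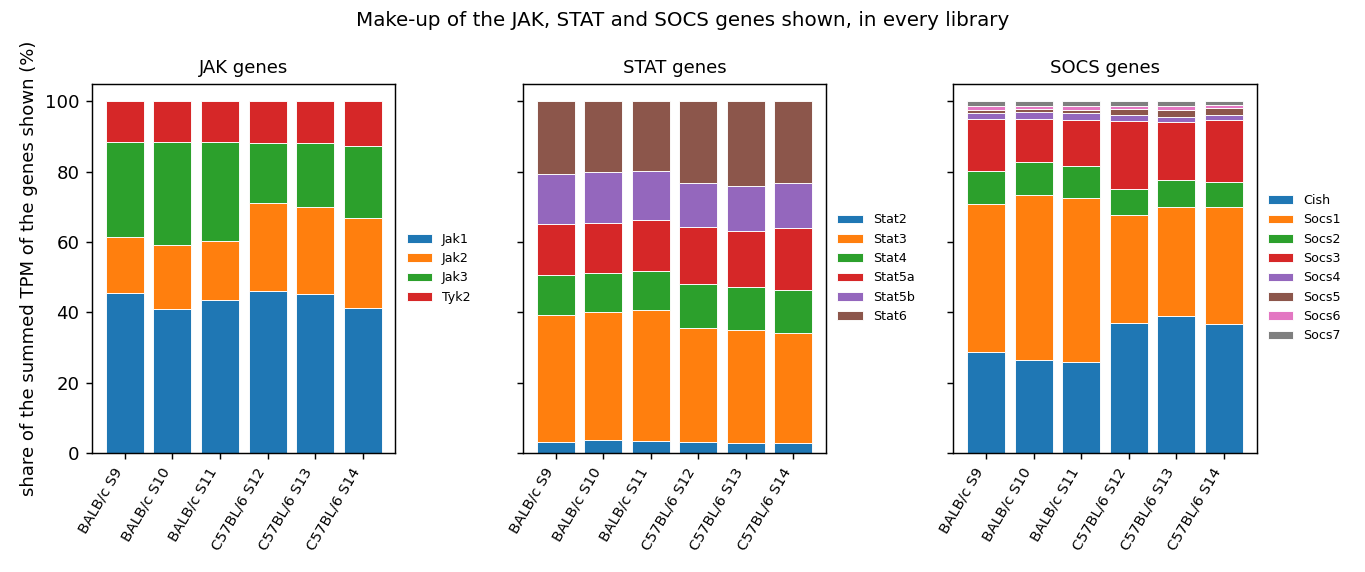
Share of each gene in the summed TPM (%) of the JAK, STAT or SOCS genes shown, in the 3 BALB/c and 3 C57BL/6 libraries. The *Jak2* band is wider and the *Jak3* band narrower in C57BL/6, the STAT bands differ by a few percentage points, and the *Cish* band is wider than the *Socs1* band in C57BL/6 but narrower in BALB/c.

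The deposited estimates are per transcript, so the gene differences were followed to transcripts. Of 49 transcripts of the 10 genes, 35 were tested with 31918 transcripts in all, and 7 had an adjusted p under 0.05 (4 higher and 3 lower in C57BL/6), where 13.6% of all transcripts did. With the fold change criterion 1 of them was called, against 6.32% of all transcripts. Salmon divides reads between transcripts of a gene, so each split is an estimate, and curated transcripts are named NM and predicted ones XM in RefSeq.

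*Cish* had 3 transcripts. NM_001317354.1 (2793 bases) held 109, 113 and 97.0 CPM in BALB/c and 205, 189 and 209 CPM in C57BL/6 libraries, with a log2 fold change of 0.92 ± 0.07 (adjusted p = 0.0015, edgeR). NM_009895.4 (3014 bases) held 79.7, 75.2 and 65.5 CPM in BALB/c and 86.4, 73.7 and 84.4 CPM in C57BL/6 libraries, and its log2 fold change of 0.15 ± 0.10 was not called (adjusted p = 0.476, edgeR). The share of the first in the reads of *Cish* was 46.0% to 51.4% in BALB/c and 52.8% to 57.9% in C57BL/6 libraries, and that of the second 31.2% to 34.2% and 20.6% to 23.5%, without overlap. The predicted XM_006511635.3 (3101 bases) had a log2 fold change of 0.91 ± 0.21 (adjusted p = 0.046, edgeR), a call that was lost when any 1 of the 6 libraries, S9 to S14, was left out, with values of 0.74 to 1.02, with plain library size (0.79, adjusted p = 0.0615) and with no filter (0.91, adjusted p = 0.0735).

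*Jak3* had 2 transcripts, both lower in all C57BL/6 than in all BALB/c libraries. NM_010589.6 (3950 bases) was measured at 92.7, 104 and 102 CPM in BALB/c and at 51.6, 54.7 and 64.4 CPM in C57BL/6 libraries, with a log2 fold change of −0.81 ± 0.10 (adjusted p = 0.00573, edgeR). NM_001190830.1 (3679 bases) was measured at 62.2, 54.1 and 54.6 CPM in BALB/c and at 48.8, 46.6 and 47.5 CPM in C57BL/6 libraries, with a log2 fold change of −0.26 ± 0.06 (adjusted p = 0.0575, edgeR). The longer transcript thus held 59.9% to 65.8% of the reads of *Jak3* in BALB/c and 51.4% to 57.5% in C57BL/6 libraries. Whether the 2 transcripts of *Jak3* changed by different amounts was not tested beyond these shares, which did not overlap.

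**Figure D4:**
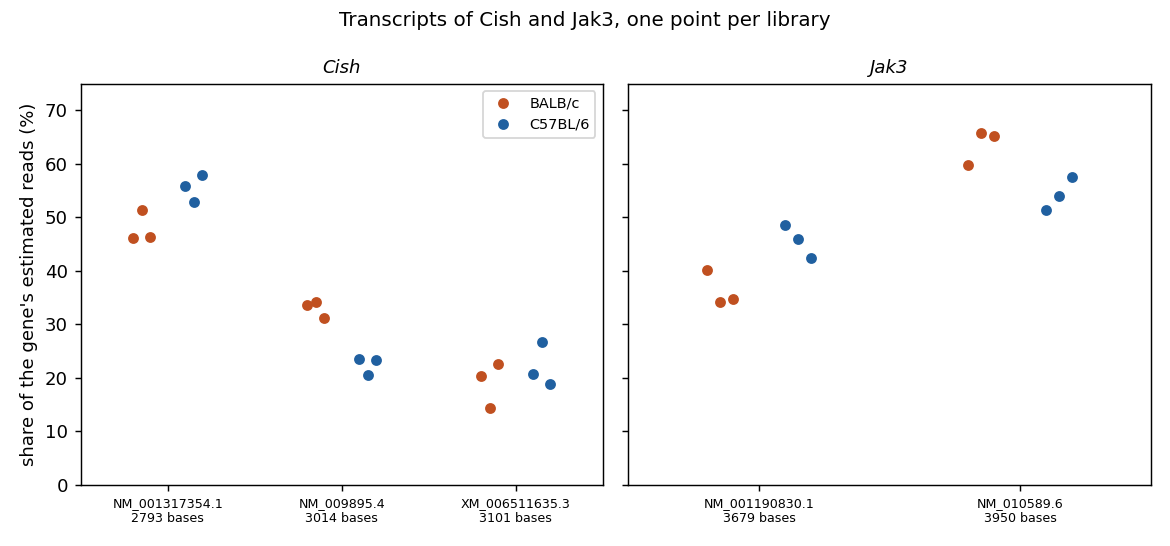
Share of the estimated reads of *Cish* and *Jak3* (%) that each transcript held, 1 point per library, BALB/c in orange and C57BL/6 in blue, with transcript lengths in bases. The share of NM_009895.4 of *Cish* is lower and that of NM_001190830.1 of *Jak3* higher in every C57BL/6 library than in any BALB/c library.

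*Stat3* was carried by NM_213659.3 (4520 bases), with 72.9% to 76.7% of its reads in BALB/c and 73.3% to 76.6% in C57BL/6 libraries and a log2 fold change of −0.34 ± 0.04 (adjusted p = 0.00551, edgeR). *Stat5b* was carried by NM_001113563.2 (4919 bases), with 89.7% to 96.1% of its reads over all libraries and a log2 fold change of −0.31 ± 0.04 (adjusted p = 0.00809, edgeR). *Socs3* (NM_007707.3) and *Stat6* (NM_009284.2) had 1 transcript each. That of *Socs3* had an adjusted p of 0.0159 among transcripts, which rose to 0.0641, 0.0674 and 0.065 without S10, S11 and S14, with log2 fold changes of 0.62, 0.65 and 0.66, and that of *Stat6* had 0.261. *Jak2* was divided over 3 transcripts with overlapping shares, NM_008413.4, XM_017318068.3 and XM_006526713.5, none of which was called, with log2 fold changes of 0.43 to 0.88. One more, the predicted XM_006526714.5 (4356 bases), held 0.39% to 0.66% of the reads of *Jak2* in BALB/c and 1.59% to 2.55% in C57BL/6 libraries and was the 1 transcript past both thresholds (log2 fold change 2.58 ± 0.40, adjusted p = 0.0135, edgeR). It falls outside the rule for transcripts named and was added after its values were seen, and the call was lost without S10, S12 or S14, at 2.66, 2.48 and 2.46. The 6 transcripts of *Jak1* and the tested transcripts of *Stat5a* and *Socs2* had none under 0.05.

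Other transcripts that held at least 5% of the reads of their gene in any library did not pass the test. *Jak1* was divided over XM_006502812.5 (42.4% to 50.8% of its reads over all libraries), NM_146145.2 (28.3% to 36.6%) and NM_013567.1 (15.3% to 18.7%), with log2 fold changes of 0.03, 0.13 and 0.17 (adjusted p = 0.956, 0.78 and 0.264, edgeR). *Stat3* also had NM_213660.3 (10.4% to 17.4%, log2 fold change −0.39, adjusted p = 0.329, edgeR) and NM_011486.5 (7.05% to 12.6%, −0.26, adjusted p = 0.701, edgeR), and *Stat5b* had NM_011489.3 (3.42% to 9.72%, −0.06, adjusted p = 0.97, edgeR). *Stat5a* was carried by NM_001362680.1 (73.55% to 82.2%, 0.02, adjusted p = 0.931, edgeR), beside NM_001164062.1, XM_006532721.3 and XM_017314402.3, with log2 fold changes of 0.06, 0.52 and 0.56 (adjusted p = 0.94, 0.803 and 0.206, edgeR). *Socs2* was carried by NM_007706.4 (78.9% to 84.75%, −0.14, adjusted p = 0.217, edgeR), beside NM_001168655.1 (3.77% to 9.38%, −0.04, adjusted p = 0.981, edgeR).

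The other genes of the pathway were counted by role in 5 lists, 62 of whose 72 genes were tested. Of these 62, 33 were higher and 10 lower in C57BL/6 BMMCs at an adjusted p under 0.05, where 27.0% of all genes were higher and 25.9% lower, and 12 were higher and 2 lower with the fold change criterion as well, where 7.73% and 5.54% of all genes were. Their median log2 fold change was 0.16. With plain library size, where the median of all genes moves by −0.14, the number lower at an adjusted p under 0.05 was 19. Among the 12 called higher, *Il21r*, *Ifngr2*, *Sh2b2*, *Il2ra* and *Ccnd1* had under 10 reads in 1 or more BALB/c libraries. These genes passed the filter on low counts only through their C57BL/6 libraries. With at least 10 counts in every library, 9 listed genes were called in place of 14.

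**Figure D5:**
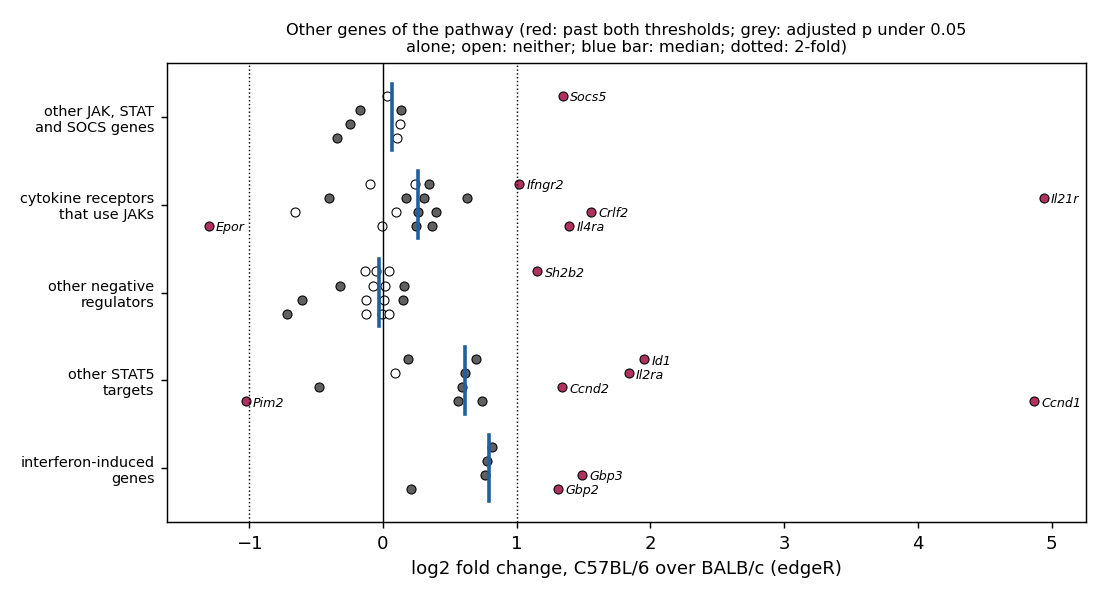
Log2 fold change (C57BL/6 over BALB/c, edgeR) of the tested genes of 5 lists, 1 point per gene, red where past both thresholds, grey where the adjusted p alone is under 0.05 and open otherwise, with the list median as a blue bar. The medians of the STAT5 targets (0.61) and of the interferon-induced genes (0.80) lie to the right of 0. Those of the genes listed as negative regulators (−0.03) and of the other family members (0.07) lie near 0.

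Among the 8 other family members, 2 were higher and 3 lower at an adjusted p under 0.05 (27.0% and 25.9% of all genes). *Socs5* was the 1 past both thresholds, with 13.03, 12.98 and 12.29 CPM in BALB/c and 32.2, 32.8 and 32.2 CPM in C57BL/6 libraries and a log2 fold change of 1.34 ± 0.06 (adjusted p = 1.29e-07, edgeR). With curated mRNA transcripts alone it was 2.25 with an adjusted p of 0.146. *Socs1* was lower, at 141, 160 and 153 CPM against 127, 120 and 136 CPM (log2 fold change −0.25 ± 0.06, adjusted p = 0.00712, edgeR). *Stat2*, a factor of type I interferon signalling, was lower at −0.34 ± 0.09 (adjusted p = 0.0084, edgeR). *Stat4* (0.03) did not pass the test. It passed as lower at −0.11 with plain library size (adjusted p = 0.0424) and at −0.15 on log2(TPM + 1) (adjusted p = 0.0276, limma), and was 0.03 and 0.02 relative to the median of all genes there. *Tyk2* (0.14, adjusted p = 0.02, edgeR) was −0.01 with plain library size, 0.14 relative to that median, and −0.05 with curated mRNA transcripts alone, and it lost its call without S10, S12 or S14, at 0.11, 0.13 and 0.14. *Socs4* (−0.17, adjusted p = 0.0271, edgeR) lost its call without S10, S11, S13 or S14, at −0.16, −0.17, −0.15 and −0.14, with DESeq2 (−0.17, adjusted p = 0.0614; 0.0635 with a length offset) and with curated mRNA transcripts alone (−0.17, adjusted p = 0.0557).

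Of the 26 receptors that use JAKs, 19 were tested, 12 were higher and 2 lower at an adjusted p under 0.05 (27.0% and 25.9% of all genes), and the median log2 fold change was 0.27. The alpha chain of the IL-4 receptor, *Il4ra*, which uses JAK1 and STAT6, was measured at 509, 541 and 489 CPM in BALB/c and at 1368, 1351 and 1318 CPM in C57BL/6 libraries (log2 fold change 1.39 ± 0.04, adjusted p = 2.43e-08, edgeR). *Crlf2*, the receptor chain for thymic stromal lymphopoietin, was higher at 344, 349 and 356 CPM against 118, 122 and 117 CPM (1.56 ± 0.04, adjusted p = 4.81e-09, edgeR). Both sets of libraries stood far apart. *Il21r*, a gamma chain receptor, had 8 to 13 reads per BALB/c and 227 to 364 reads per C57BL/6 library (4.94 ± 0.20, adjusted p = 1.21e-07, edgeR). *Epor*, the erythropoietin receptor, which uses JAK2, was lower, with 7.41, 9.73 and 8.41 CPM against 3.69, 3.62 and 3.05 CPM (−1.30 ± 0.14, adjusted p = 4.3e-05, edgeR). *Ifngr2* had 7 to 11 and 13 to 20 reads, and its call (1.02 ± 0.34, adjusted p = 0.0328, edgeR) was lost with DESeq2 (1.04, adjusted p = 0.185), with no filter, with curated mRNA transcripts alone or with unmatched transcripts kept (1.02 to 1.04, adjusted p = 0.0655, 0.0706 and 0.101), and without S9, S10, S11, S13 or S14, at values of 0.80 to 1.09.

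The receptors of the culture cytokine IL-3 were abundant in both strains. *Csf2rb2*, the beta chain that is specific to IL-3 in mice, was measured at 6150, 5944 and 5366 CPM in BALB/c and at 9030, 9023 and 9004 CPM in C57BL/6 libraries (log2 fold change 0.63 ± 0.05, adjusted p = 5.66e-06, edgeR). It shares 28.63% of its 31-base words with *Csf2rb*, the common beta chain, so the division of reads between them is uncertain. *Csf2rb* itself had a log2 fold change of 0.17 ± 0.05 (adjusted p = 0.0186, edgeR), a call lost without S11 or S14, at 0.11 and 0.16, and with unmatched transcripts kept, at 0.16 (adjusted p = 0.0602). It was also lost with plain library size, at 0.02 (adjusted p = 0.707), and on log2(TPM + 1), at −0.01, which are 0.17 and 0.16 relative to the median of all genes there. *Il3ra*, the alpha chain, was higher at 0.27 ± 0.04 (adjusted p = 5e-04, edgeR), 0.85 with curated mRNA transcripts alone (adjusted p = 0.00148) and 0.12 with plain library size (adjusted p = 0.0359). *Il2rg*, the common gamma chain to which JAK3 binds, was higher at 0.34 ± 0.04 (adjusted p = 4.3e-05, edgeR). *Il10ra* was at −0.01 and did not pass the test, with a sign that turned without S9, S10 or S14, at 0.004, 0.01 and 0.02. It passed the test as lower with plain library size (−0.16, adjusted p = 0.0185) and on log2(TPM + 1) (−0.18, adjusted p = 0.0158, limma), and stood at −0.01 in both relative to the median of all genes. *Il9r*, named after its values were seen because IL-9 was in the medium, was lower, at 50.03, 48.32 and 51.05 CPM against 39.1, 36.6 and 37.5 CPM (−0.40 ± 0.05, adjusted p = 7.12e-05, edgeR).

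Of the 16 genes listed as other negative regulators, 3 were higher, 3 lower and 10 did not pass the test. For comparison, 27.0% of all genes were higher and 25.9% lower. Whether each listed gene inhibits this pathway in these cells was not tested. The phosphatases *Ptpn2*, which acts on JAK1 and JAK3, and *Ptpn6* (SHP-1) were both lower in C57BL/6 BMMCs. *Ptpn2* was measured at 91.6, 118 and 103 CPM in BALB/c and at 64.6, 64.1 and 61.7 CPM in C57BL/6 libraries (log2 fold change −0.71 ± 0.08, adjusted p = 7.27e-05, edgeR). *Ptpn6* had a log2 fold change of −0.32 ± 0.05 (adjusted p = 0.000463, edgeR). *Ptpn1* and *Ptpn11* of the same list were named after their values were seen. *Ptpn1* was higher in C57BL/6 BMMCs (0.16 ± 0.04, adjusted p = 0.0117, edgeR) and *Ptpn11* did not pass the test (−0.07, adjusted p = 0.131, edgeR). *Ptprc* (CD45) stood at −0.01 (adjusted p = 0.94, edgeR), and at 0.04 without S14. It passed as lower with plain library size (−0.15, adjusted p = 0.0163), on log2(TPM + 1) (−0.18, adjusted p = 0.0107, limma) and on log2(TPM + 0.1) (−0.18, adjusted p = 0.0102, limma), and stood at −0.01 in the first 2 of these relative to the median of all genes. *Sh2b2*, an adaptor with 8 to 13 and 19 to 25 reads, passed both thresholds (1.15 ± 0.34, adjusted p = 0.0179, edgeR), but not with DESeq2 (1.16, adjusted p = 0.0939) or without S11, S12 or S13, at 0.91, 1.07 and 1.05. The call was also lost with curated mRNA transcripts alone (2.07, adjusted p = 0.197) and with unmatched transcripts kept (1.14, adjusted p = 0.0739).

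Of the 13 STAT5 targets other than *Cish* and *Socs2*, 10 were higher, 2 lower and 1 did not pass the test (27.0% of all genes were higher and 25.9% lower), and the median log2 fold change was 0.61. *Osm*, the cytokine oncostatin M, was higher at 1012, 987 and 1040.0 CPM against 573, 654 and 589 CPM (0.74 ± 0.05, adjusted p = 3.51e-06, edgeR). *Ccnd2*, a cyclin of G1, was higher at 465, 476 and 463 CPM against 190, 178 and 186 CPM (1.34 ± 0.04, adjusted p = 1.36e-08, edgeR). *Cdkn1a*, the cell cycle inhibitor p21, was higher at 0.70 ± 0.04 (adjusted p = 1.71e-06, edgeR), and the survival gene *Mcl1* at 0.59 ± 0.05 (adjusted p = 6.07e-06, edgeR). *Id1* had 15 to 22 and 55 to 85 reads (1.95 ± 0.20, adjusted p = 4.17e-05, edgeR), *Il2ra* 8 to 9 and 25 to 32 reads (1.84 ± 0.26, adjusted p = 0.000329, edgeR). *Ccnd1* had 1 read over the BALB/c libraries, in S10, and 38 over the C57BL/6 libraries, a ratio of 39.9 after scaling with an exact 95% interval of 6.75 to 1618, for counting error only. The ratio rests on that 1 read, and without S10 the BALB/c count is 0 and no ratio can be formed.

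The 2 that were lower are the serine/threonine kinases that promote survival downstream of cytokines. *Pim1* was measured at 493, 562 and 499 CPM in BALB/c and at 390, 348 and 380 CPM in C57BL/6 libraries (log2 fold change −0.48 ± 0.06, adjusted p = 0.00018, edgeR). *Pim2* held 213, 265 and 222 CPM in BALB/c and 119, 107 and 117 CPM in C57BL/6 libraries (−1.03 ± 0.08, adjusted p = 7.99e-06, edgeR). For both, all BALB/c libraries lay above all C57BL/6 libraries, opposite to *Cish*. *Ccnd3* was at 0.18 ± 0.05 (adjusted p = 0.00759, edgeR) and *Myc*, which did not pass the test, at 0.09. On log2(TPM + 1) the sign of both turned, while relative to the median of all genes there they stood at 0.17 and 0.08. With plain library size *Ccnd3* was at 0.04 and lost its call (adjusted p = 0.495) and *Myc* was at −0.06, which are 0.18 and 0.09 relative to the median there.

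Of the 9 interferon-induced genes 6 were tested, and all 6 were higher at an adjusted p under 0.05, where 27.0% of all genes were. *Isg15* and *Ifit1* were named after their values were seen. *Isg15* had 13 to 22 reads per BALB/c and 21 to 33 per C57BL/6 library (0.78 ± 0.29, adjusted p = 0.0455, edgeR). *Ifit1*, which was untested, had 7 to 11 and 3 to 6 reads. In TPM all its C57BL/6 libraries lay below all its BALB/c libraries. *Gbp2*, a guanylate-binding protein, was higher at 13.96, 14.64 and 14.10 CPM against 5.78, 5.80 and 5.67 CPM (1.31 ± 0.08, adjusted p = 1.21e-06, edgeR), *Gbp3* at 1.49 ± 0.19 (adjusted p = 0.000173, edgeR). *Irf1* (0.76 ± 0.09, adjusted p = 9.72e-05), *Oas1a* (0.81 ± 0.08, adjusted p = 3.96e-05) and *Irf9* (0.21 ± 0.04, adjusted p = 0.00332, edgeR) were higher by less than 2-fold, and *Oas1a* was not called with curated mRNA transcripts alone (1.08, adjusted p = 0.47). The call of *Irf9* was lost with plain library size (0.07, adjusted p = 0.238) and on log2(TPM + 1) and log2(TPM + 0.1) (both 0.04, adjusted p = 0.518 and 0.517, limma), scalings in which it stood at 0.21, 0.21 and 0.22 relative to the median of all genes. *Oas1a* shares 17.98% of its 31-base words with *Oas1g*.

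Markers of other cell types were counted beside these results. In bulk RNA, fewer cells of a type and less RNA per cell cannot be told apart. The 7 basophil markers summed to 515 to 530 TPM in BALB/c and 635 to 664 TPM in C57BL/6 libraries, with 3 of 7, *Mcpt8*, *Prss34* and *Cebpa*, called higher, where 7.73% of all genes were. At the adjusted p alone *Ms4a3* was higher (0.99, adjusted p = 0.0024, edgeR) and *Il18r1* lower (−0.54, adjusted p = 0.00415, edgeR). *Cd200r3*, the most abundant of the 7 in BALB/c, stood at 339 and 286 TPM and did not pass the test (−0.07, adjusted p = 0.154, edgeR). *Itga2* did not pass either (0.15, adjusted p = 0.589, edgeR). *Prss34* had 1 to 8 reads per BALB/c and 192 to 224 per C57BL/6 library, and *Cebpa* 2 to 5 and 253 to 334. Both passed the filter only through their C57BL/6 libraries. The 8 macrophage markers summed to 0.94 to 1.77 TPM and 8.34 to 9.72 TPM, with *Adgre1* and *Cd68* called higher and *C1qa*, *C1qb*, *C1qc* and *Csf1r* at 0 reads in all libraries. The 4 dendritic cell markers summed to 2.91 to 3.07 and 11.7 to 13.1 TPM (*Itgax* called higher, *Siglech* at 0 reads), and the 6 erythroid markers to 0.76 to 1.39 and 16.8 to 17.2 TPM (*Hbb-bt* called higher, *Hba-a2* at 0 reads). The C57BL/6 erythroid sum was nearly all *Hbb-bt*, at 0 and 16.6 TPM, whereas *Hba-a1* was at 1.05 and 0.35 TPM and *Alas2* at 0.075 and 0.014 TPM, both untested. Neutrophil, eosinophil and B cell markers each summed to under 0.4 TPM, and the 7 T or NK cell markers summed to 5.30 to 6.30 TPM in BALB/c and 4.23 to 5.04 TPM in C57BL/6 libraries, with *Cd3e*, *Cd3g*, *Cd4* and *Nkg7* at 0 reads. The T or NK cell sum was nearly all *Ncr1*, at 5.82 and 4.68 TPM, which did not pass the test (−0.14, adjusted p = 0.327, edgeR). The part of these cells in the differences of the pathway genes was not tested, and strain and culture cannot be told apart.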

How the data were processed

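Poly(A) RNA libraries of BMMCs were made with a strand-specific kit and read as pairs of 100 bases, and the submitters' processing notes name FastQC 0.11.5 and Salmon 0.8.2. The authors deposited, per library and transcript, the transcript length and effective length in bases, the estimated count of reads, and the TPM value. The paper's methods name Ensembl transcripts and the tables list RefSeq accessions, and whether reads were assigned by strand is not given in the sources used here. Accessions without version were paired with symbols through the RefSeq gene table of GRCm38.p6, which matched 106440 of 129698 transcripts (82.07%), giving 35297 genes. Transcripts without a match (2.69% to 3.12% of reads) were set aside.

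Counts were added up per gene, rounded and tested with edgeR 4.0.16 (R 4.3.3; TMM, filter at a minimum count of 10, quasi-likelihood test of strain, Benjamini-Hochberg over 12461 genes). The fold change is C57BL/6 over BALB/c. The thresholds (adjusted p under 0.05, fold change above 2) are those of the study. Transcripts were tested in the same way. No replicate number is shared by the strains, so nothing was paired. Ratios used an exact permutation test (scipy 1.17.1). Shared sequence was measured as 31-base words of GENCODE transcripts, and gene positions are from GENCODE on GRCm39. The edgeR and DESeq2 fits were tested on simulated counts.

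The 10 genes, the 5 lists, the marker lists and the tests were chosen with earlier results of these data known. Named in the text were the 10 genes, listed genes past both thresholds, and at most 6 further genes per list in order of mean TPM, and transcripts with at least 5% of the reads of their gene in any library. Listed genes named beyond this rule are marked where they appear. A gene that this rule covers is not reported here, and it was left out of the lists, counts and shares given. Alternatives were DESeq2 1.42.0 with and without a length offset, edgeR with that offset, other scalings and filters, log2(TPM + 1) or log2(TPM + 0.1) tested with limma 3.58.1, curated mRNA transcripts alone, unmatched transcripts kept, *Stat5a* and *Stat5b* summed, and each library left out in turn. At this depth the 3 cultures per strain limit the precision, except for genes with few reads.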

Additional observations from a re-analysis of the deposited data

How the results depend on the processing

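For the 10 genes, 182 values were computed under alternatives, of which 167 kept their direction and their side of the threshold, 1 lost its call, 4 gained one and 10 changed sign. *Jak2*, *Jak3*, *Stat3*, *Socs3* and *Cish* kept both under all alternatives run, with log2 fold changes of 0.43 to 0.64, −0.73 to −0.54, −0.49 to −0.30, 0.50 to 0.77 and 0.55 to 0.77. With plain library size the sign changed for *Jak1* (−0.059), *Stat5a* (−0.059), *Stat6* (−0.048), *Myc* (−0.058), *Stat4* (−0.112) and *Tyk2* (−0.006), on log2(TPM + 1) for *Jak1* (−0.091), *Stat5a* (−0.094), *Stat6* (−0.079), *Myc* (−0.091), *Stat4* (−0.147), *Tyk2* (−0.032), *Csf2rb* (−0.007) and *Ccnd3* (−0.00026), and on log2(TPM + 0.1) for *Jak1* (−0.092), *Stat5a* (−0.096), *Stat6* (−0.08), *Myc* (−0.091), *Stat4* (−0.153), *Tyk2* (−0.033), *Csf2rb* (−0.007) and *Ccnd3* (−0.00026). In these 3 settings the median of all genes moved by −0.14, −0.17 and −0.18. The summed counts of *Stat5a* and *Stat5b* gave −0.11, a value of the sum and not of either gene. It was counted above for both genes, as the 1 lost call (*Stat5b*) and as 1 of the 10 changed signs (*Stat5a*). With curated mRNA transcripts alone *Tyk2* gave −0.047. With a library left out, *Il10ra* ranged from −0.049 to 0.019 and *Ptprc* from −0.029 to 0.037. The number of the 10 genes called was 6 at the adjusted p alone. The number of listed genes called, 14, was 9 with at least 10 counts in every library, 7 on log2(TPM + 1) and 43 at the adjusted p alone, and the number lower at an adjusted p under 0.05, 10, was 19 with plain library size and 18 on both TPM scales. With a library left out, 0 to 1 transcripts of the 10 genes were called and 4 to 8 had an adjusted p under 0.05. The log2 difference of the *Jak1* to *Jak2* ratio was −0.33 with curated mRNA transcripts alone, and that of *Socs3* to *Cish*, −0.05, was 0.001 there and −0.117 to 0.032 with a library left out. The cause of these changes was not tested. Among the other named genes, 581 of 642 values kept their direction and side, and no paired analysis was possible because the strains share no replicate number. Genes with under 40 reads per library, such as *Ifngr2*, *Sh2b2*, *Il2ra* and *Ccnd1*, are limited by depth.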
